A study of Mus musculus with 9 samples.

Results

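Ubd, which encodes the ubiquitin-like protein FAT10, was examined together with 9 genes of the interferon-gamma inducible route to antigen presentation in Notch-driven hepatocellular carcinoma (HCC) of the mouse. The 9 genes are Psmb8, Psmb9 and Psmb10, Psme1 and Psme2, Tap1 and Tap2, Tapbp, and B2m. The 10 genes are 10 of 19938 genes measured on a probe set of a single gene. They were selected on earlier results of these arrays: Ubd was chosen by its rise in HCC over control liver, and the other 9 by their function, to ask if Ubd moved with other interferon-gamma inducible genes. Differences between HCC and control liver are therefore given for all 10 as a description, with a standard error and no p-value. Calls counted among them in the fit over all genes are likewise a description and no test.

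Each of 9 liver RNA samples was hybridised to its own Affymetrix Mouse Gene 1.0 ST array. HCC came from bitransgenic AFP-Cre/Rosa26-lsl-NICD mice (5 arrays), in which Cre under the alpha-fetoprotein promoter removes a stop cassette and so releases the active intracellular domain of Notch (NICD) from the Rosa26 locus. Control tissue was healthy liver of monotransgenic Rosa26-lsl-NICD mice (4 arrays), which carry the same silent NICD allele without Cre, so the groups differ in the Cre transgene as well as in the tumour. Both groups were of a hybrid 129 x C57BL/6 background and 6 to 12 months old. The alpha-fetoprotein promoter is active in fetal liver cells, and liver outside the tumours of bitransgenic mice was not among the samples. Litter, sex and the tie of each array to an animal are not given in the sources used here, so the spread behind each p-value is that between arrays, which may be technical. Values below are log2 intensities, and 1 unit is a doubling.

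FAT10 carries a pair of ubiquitin-like domains, is attached to other proteins by the enzymes Uba6 and Ube2z, and sends them to the proteasome. Interferon-gamma and TNF switch it on in many cells, often together with the immunoproteasome. In the immunoproteasome the catalytic subunits Psmb8, Psmb9 and Psmb10 replace the constitutive Psmb5, Psmb6 and Psmb7, and the activator PA28, built of Psme1 and Psme2, opens the core particle. The peptides made there enter the endoplasmic reticulum through the transporter Tap1-Tap2 and are loaded, with the help of tapasin (Tapbp), onto MHC class I molecules, whose light chain is B2m. In human HCC, raised FAT10 has long been described.

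The start sites of 9 of the 10 genes had a promoter window in RefSeq (assembly GRCm38.p6, from 250 bases before to 50 after the start), and Tap2 is named only. The windows shown are those with a match to a motif of interferon or NF-kappaB response before the start site, and the stretch that Psmb9 and Tap1 share. Capitals mark the matches. In Ubd (chr17:37193642-37193891, plus strand) they mark the NF-kappaB consensus at bases -15 to -6. In Psmb8 (chr17:34197945-34198194, plus strand) they mark a GAS motif, an element of the interferon-gamma response, at -97 to -89. In B2m (chr2:122147437-122147686, plus strand) they mark an IRF core motif at -139 to -131 and then the NF-kappaB consensus at -126 to -117. The 225 bases between the opposed starts of Psmb9 and Tap1 (chr17:34187331-34187555), written in the direction of Tap1, held no match.
Ubd: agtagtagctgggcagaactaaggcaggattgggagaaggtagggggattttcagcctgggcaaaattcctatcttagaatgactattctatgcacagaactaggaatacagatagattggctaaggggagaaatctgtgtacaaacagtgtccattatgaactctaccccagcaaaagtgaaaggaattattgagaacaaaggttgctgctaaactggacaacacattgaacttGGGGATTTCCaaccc
Psmb8: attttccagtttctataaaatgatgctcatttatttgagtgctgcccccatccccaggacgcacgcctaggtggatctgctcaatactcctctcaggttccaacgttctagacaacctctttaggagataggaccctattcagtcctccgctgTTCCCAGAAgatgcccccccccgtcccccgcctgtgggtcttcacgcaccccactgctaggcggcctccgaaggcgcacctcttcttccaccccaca
B2m: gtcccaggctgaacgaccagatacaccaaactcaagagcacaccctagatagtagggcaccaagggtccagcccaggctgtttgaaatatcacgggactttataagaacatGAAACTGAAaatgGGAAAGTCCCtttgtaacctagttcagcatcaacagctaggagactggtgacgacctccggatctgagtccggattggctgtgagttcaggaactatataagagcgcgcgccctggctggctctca
Psmb9-Tap1: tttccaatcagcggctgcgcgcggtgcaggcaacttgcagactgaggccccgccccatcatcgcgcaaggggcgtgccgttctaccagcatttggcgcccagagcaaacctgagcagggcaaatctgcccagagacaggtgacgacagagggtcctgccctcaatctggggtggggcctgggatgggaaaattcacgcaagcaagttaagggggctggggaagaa
The GAS motif (TTCNNNGAA) and the IRF core motif (GAAANNGAA) were searched on both strands, as was the NF-kappaB consensus, which was added after the Ubd promoter had been read. They occurred in 8.30%, 8.56% and 8.46% of all 32851 promoter windows in the table, in that order. Among the members' 10 windows the GAS motif occurred in Psmb8 alone, the IRF core in B2m and, at +11 to +19, in Psme1, and the NF-kappaB consensus in Ubd and B2m. A match is a description of these letters only. In the RefSeq gene order, Psmb9, Tap1, Psmb8 and Tap2 are consecutive protein-coding genes on chromosome 17, which also carries Ubd and Tapbp, while B2m lies on chromosome 2.

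Ubd stood far above control liver in 4 of the 5 HCC arrays and above it by less in the other one. The log2 intensities in HCC arrays 1 to 5 were 7.34, 9.88, 11.07, 9.75 and 9.72, and those in control arrays 1 to 4 were 5.89, 6.68, 5.78 and 6.64. Every HCC array lay above every control array. HCC averaged 9.55 ± 1.36 and control liver 6.25 ± 0.48 (SD, n = 5 and n = 4), a difference of 3.30 (SE 0.63) or 9.86-fold. Every control value lay below the mean of the median gene over all arrays (6.83). No detection calls were used, so the control level may be background and the fold may depend on it. HCC array 1 was the lowest, 1.09 above the control mean, and HCC array 3 the highest, 4.82 above it. Without HCC array 1 the difference was 3.85, and without HCC array 3 it was 2.92. By size, the difference of Ubd ranked 11th among the positive differences of all genes tested.

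The differences of the other 9 genes were far smaller. They ran from -0.08 to 0.36, which is at most 1.28-fold, with 5 above 0 and 4 below. Their median was 0.17, beside -0.03 over all genes tested, and the central range of all genes (5th to 95th percentile) was -0.54 to 0.59. Across the 10 genes, 1 of 10 (Ubd) was called higher at an adjusted p of 0.05 in the fit over all genes, where 0.858% of genes were called higher, and 0 of 10 were called lower, where 0.16% were. The lowest HCC value exceeded the highest control value for 2 of the 10 (Ubd and Psme1), against 5.63% of all genes, and the reverse held for 0 of 10, against 3.86%. Since Ubd was chosen by this contrast, these counts and the calls in alternative settings below are a description and no test of Ubd. Ubd was called in 7 of 17 alternative settings and not in the other 10, which were those with array medians subtracted, with the replicate number as a block, with Xist as a covariate, and without HCC array 2, 3 or 4 or any 1 of the control arrays.

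**Figure D1:**
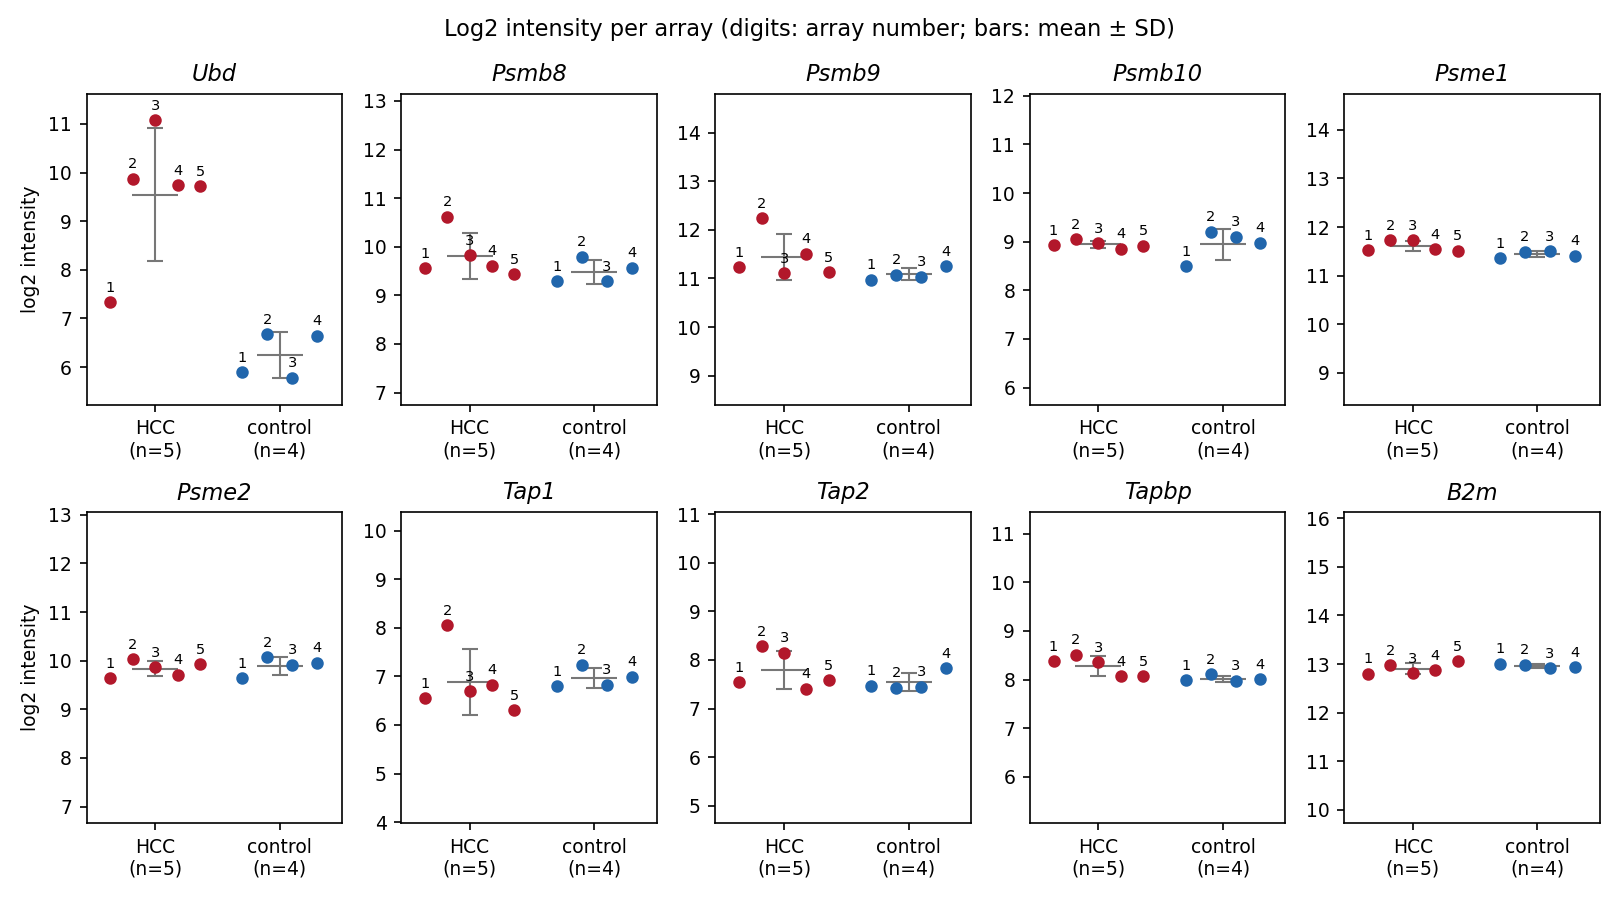
Log2 intensity of each of the 10 genes on each array, with HCC (red, n = 5) left of control liver (blue, n = 4). Digits are array numbers, bars are mean ± SD, and all panels span the same number of log2 units. Ubd separates the groups with HCC array 1 nearest to control liver, and HCC array 2 stands highest for Psmb8, Psmb9 and Tap1.

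**Figure D2:**
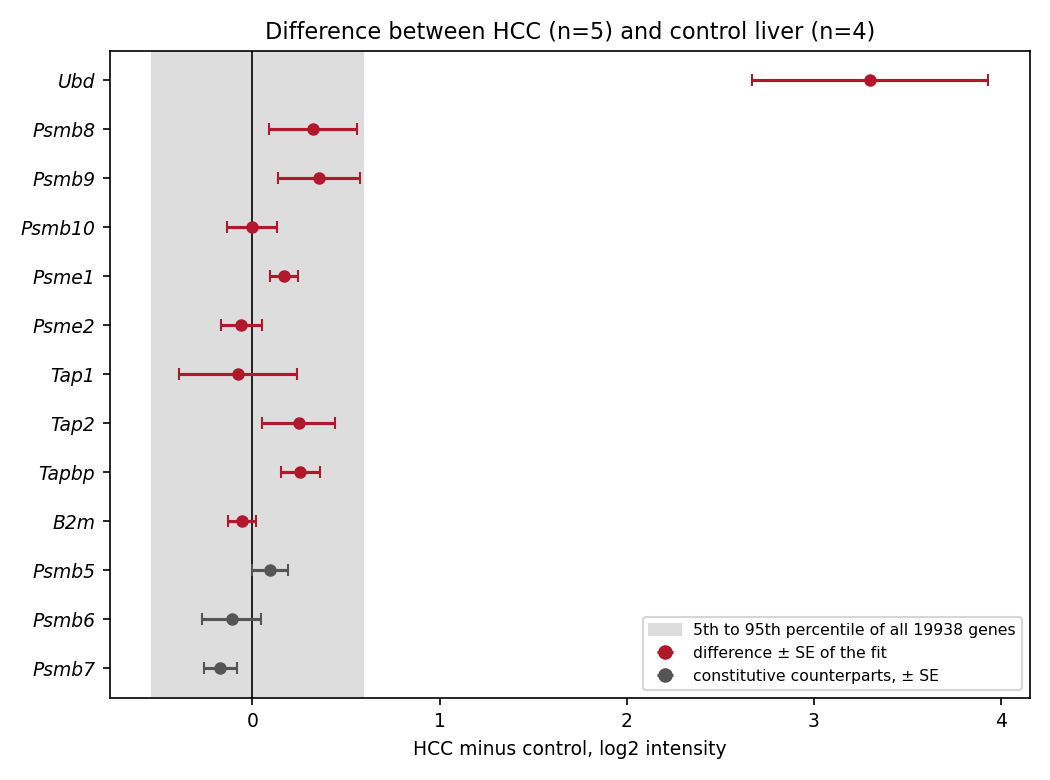
HCC minus control difference (log2) of the 10 genes in red and of the constitutive catalytic subunits Psmb5, Psmb6 and Psmb7 in grey, with bars for the SE of the fit. The grey band is the 5th to 95th percentile of all 19938 genes, -0.54 to 0.59. Only the point of Ubd, at 3.30, lies outside the band.

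Of the 3 inducible catalytic subunits, Psmb8 and Psmb9 stood highest above control liver on HCC array 2, and Psmb10 stayed inside the control range. Psmb9, the subunit that takes the place of Psmb6, had log2 intensities of 11.23, 12.24, 11.10, 11.50 and 11.13 in HCC, against 10.97, 11.08, 11.03 and 11.26 in control liver. The groups overlapped, with HCC arrays 2 and 4 above all controls, and the difference was 0.36 (SE 0.22). Without HCC array 2 the difference of Psmb9 was 0.16. Psmb8, which takes the place of Psmb5 and carries the chymotrypsin-like activity, had 9.56, 10.62, 9.82, 9.61 and 9.44 in HCC, against 9.29, 9.80, 9.29 and 9.57 in control liver. Its HCC array 2 was 1.13 above the control mean. HCC array 3 was only just above the control range, and HCC arrays 1, 4 and 5 lay within it. The difference of Psmb8 was 0.32 (SE 0.23), and 0.12 without HCC array 2. Psmb10, which takes the place of Psmb7 and carries the trypsin-like activity, had 8.93, 9.04, 8.97, 8.85 and 8.92 in HCC, against 8.49, 9.20, 9.10 and 8.98 in control liver. All its HCC values lay inside the control range, and its difference of -0.00096 (SE 0.13) changed sign in 7 of 17 alternative settings.

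The balance of catalytic subunits in RNA was described as the change of the inducible subunit minus that of its constitutive counterpart, each against its own control mean. Exchange of subunits in the proteasome itself was not measured. For Psmb9 over Psmb6 this was 0.14, 1.81, -0.07, 0.52 and -0.06 in HCC arrays 1 to 5, with a control range of -0.15 to 0.11. For Psmb8 over Psmb5 it was 0.01, 0.84, 0.24, 0.21 and -0.14 in HCC, with a control range of -0.27 to 0.25. For Psmb10 over Psmb7 it was 0.19, 0.26, 0.24, 0.23 and -0.06 in HCC, with a control range of -0.30 to 0.23. HCC array 2 thus exceeded all controls for each of the 3 pairs and HCC array 5 for none. None of the constitutive subunits passed the test: Psmb5 differed by 0.09 (adjusted p = 0.609), Psmb6 by -0.11 (adjusted p = 0.722) and Psmb7 by -0.17 (adjusted p = 0.298).

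The 2 subunits of the PA28 activator both differed little, and their differences were not tested against each other. Psme1, its alpha subunit, had 11.53, 11.73, 11.73, 11.54 and 11.52 in HCC, against 11.36, 11.49, 11.50 and 11.41 in control liver. All HCC arrays lay above all controls by a narrow margin, and the difference was 0.17 (SE 0.08), or 0.34 when the deposited values were quantile normalised again. Psme2, its beta subunit, had 9.64, 10.04, 9.86, 9.71 and 9.93 in HCC, against 9.64, 10.07, 9.91 and 9.96 in control liver. The groups overlapped throughout, with a difference of -0.06 (SE 0.11). A further probe set, which is shared by Psme2 and its copy Psme2b and was kept out of the fit, differed by -0.05.

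Of the peptide transporter, Tap1 had 6.55, 8.05, 6.70, 6.82 and 6.31 in HCC, against 6.79, 7.24, 6.82 and 6.99 in control liver. HCC array 2 was above all controls and HCC arrays 1, 3 and 5 were below all of them. The difference of Tap1 was -0.08 (SE 0.31), -0.37 without HCC array 2, and above 0 in 5 of 17 alternative settings, though not under either other scaling. Tap2 had 7.54, 8.28, 8.15, 7.41 and 7.58 in HCC, against 7.47, 7.43, 7.45 and 7.83 in control liver. HCC arrays 2 and 3 stood above all controls, and the difference was 0.25 (SE 0.20), or 0.12 without HCC array 2.

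Tapbp, the chaperone that bridges the transporter and MHC class I, had 8.37, 8.51, 8.35, 8.07 and 8.07 in HCC, against 7.99, 8.11 and 7.98 in control arrays 1 to 3, with control array 4 between them. HCC arrays 1, 2 and 3 were above all controls, HCC arrays 4 and 5 were inside the control range, and the difference was 0.26 (SE 0.10). A pair of probe sets shared by Tapbp and Rps3a1 was kept out of the fit and differed by 0.10 and 0.09. B2m, the light chain, had 12.80, 12.98, 12.81, 12.88 and 13.06 in HCC, against 13.01, 12.99, 12.91 and 12.94 in control liver. Its difference was -0.06 (SE 0.07), with 3 HCC arrays below all controls and 1 above, and it was 0.01 when the values were quantile normalised again.

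Array by array, HCC arrays 2 and 3 were the highest 2 and HCC arrays 1 and 5 the lowest 2 both for Ubd and for the mean of the other 9 genes, with the order inside each of these pairs turned round. Relative to the control mean, Ubd stood at 1.09, 3.63, 4.82, 3.50 and 3.47 in HCC arrays 1 to 5, with a control range of -0.47 to 0.43. The mean of the 9 others stood at -0.02, 0.57, 0.13, 0.007 and -0.04 in the same HCC arrays, with a control range of -0.15 to 0.12. HCC array 3, where Ubd was highest, was only just above the control range for the other 9, and HCC arrays 4 and 5, with Ubd near 3.5, lay inside it. Of the 9 genes, 7 were highest on HCC array 2 among the HCC arrays, the exceptions being Psme1 and B2m. No correlation is given, because the arrays form separate groups of 5 and 4, and the relation of Ubd with the other genes across arrays was not tested.

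HCC array 2 was also the highest array for markers of several immune cell types, and those values stand beside the values of the 9 genes. Relative to the control mean, the 10 macrophage and Kupffer cell markers averaged -1.64, 0.91, -0.66, -0.68 and -0.73 in HCC arrays 1 to 5, with 0.52 the highest among control arrays. Their summed intensity ran from 3674 to 13841 in HCC and from 4543 to 9305 in control liver, and 7 of 10 were highest on HCC array 2. Vsig4, a receptor of Kupffer cells, was 5.14 on HCC array 1 and 11.90 on HCC array 2, against 10.25 to 11.42 in control liver. The 7 neutrophil markers averaged 0.59, 2.95, -0.33, 2.23 and -0.54 in HCC arrays 1 to 5, and their sums ran from 525 to 11999 in HCC and from 520 to 1546 in control liver. The 10 MHC class II genes averaged -0.61, 0.92, 0.03, 0.25 and -0.22 in the same arrays, and 9 of 10 were highest on HCC array 2. The part of these cells in the values of the immunoproteasome genes was not tested. The difference of Ubd was 3.22 without HCC array 2, and HCC array 1 was the lowest in HCC both for Ubd and for the macrophage markers. The part of these cells in the values of Ubd was not tested either. In such bulk tissue, fewer cells of a type and less RNA per cell cannot be told apart.

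**Figure D3:**
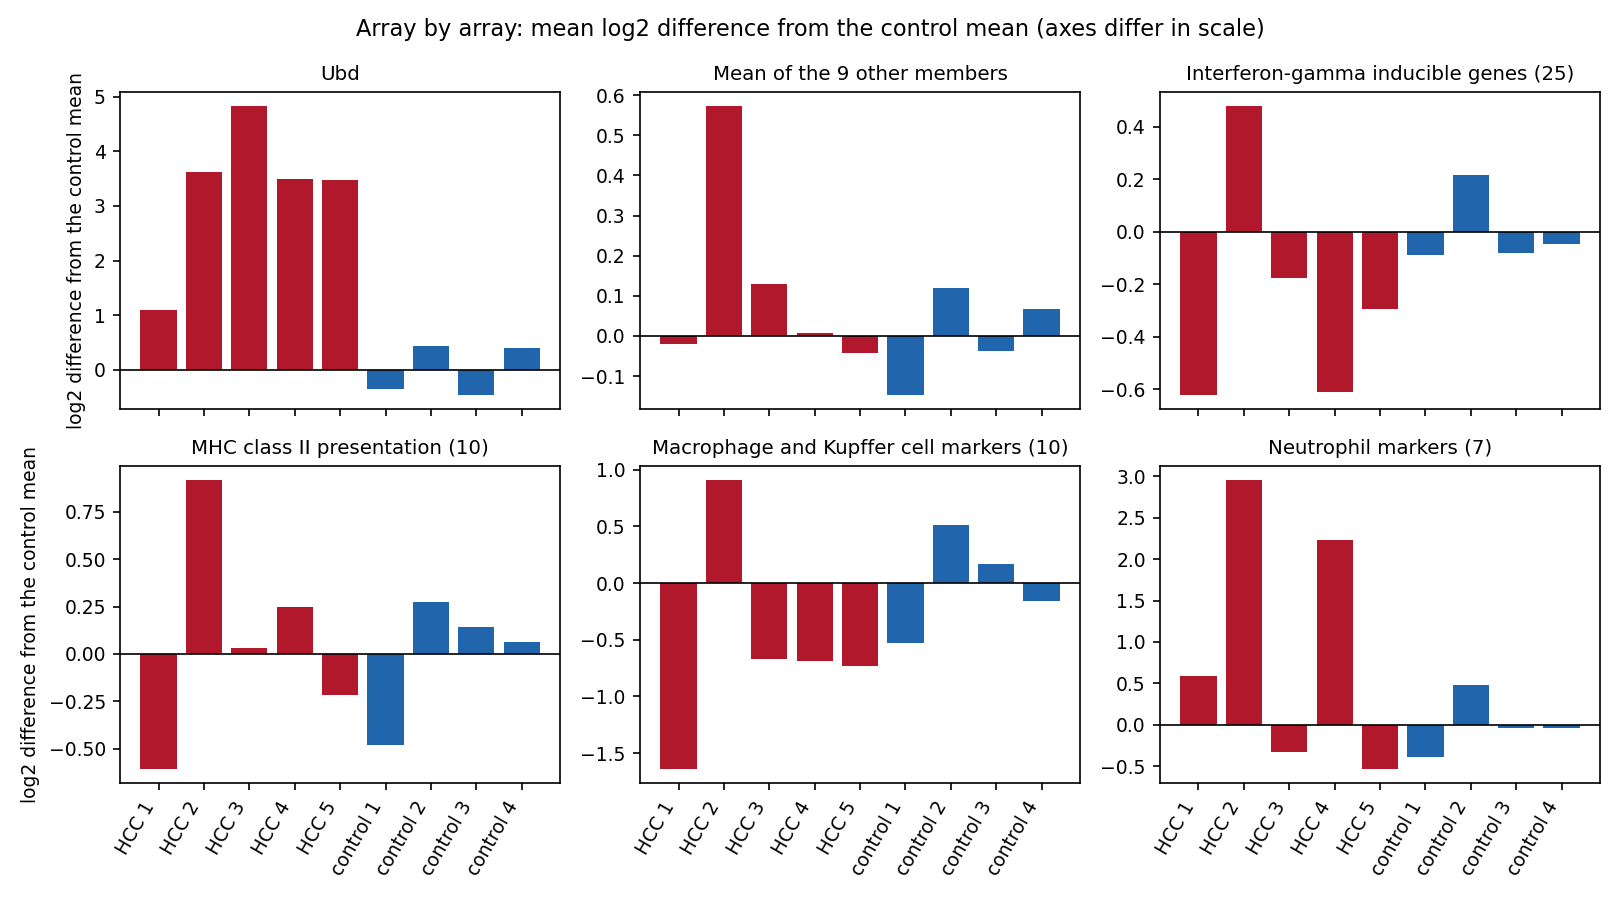
Log2 difference from the control mean on each of the 9 arrays (HCC red, control liver blue) for Ubd, the mean of the 9 other genes and the means of 4 gene lists. Axes differ in scale between panels. Ubd is lowest in HCC on array 1 and highest on array 3. The mean of the other 9 genes and the means of the 4 lists are each highest on HCC array 2, though single genes differ.

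For lymphocytes the medians of the marker lists were near 0, but most of these markers were dim. With genes no brighter than the median gene left out, 2 of 8 T cell markers remained. Of the NK and cytotoxic cell markers 1 of 9 remained, and of the B cell markers 0 of 5. A change in such dim markers may be missed, so the medians do not show that lymphocytes were unchanged. The 8 T cell markers had a median difference of -0.15, the 9 NK and cytotoxic cell markers -0.18 and the 5 B cell markers -0.06. None of these lymphocyte markers passed the test in limma, beside 0.858% of all genes called higher and 0.16% called lower. At an unadjusted p of 0.05, 0 were higher and 1 lower, beside 10.5% and 9.85% of all genes. Cd5 (-0.18, adjusted p = 0.251), Prf1 (-0.23, adjusted p = 0.110) and Cd79a (-0.14, adjusted p = 0.542) had the smallest adjusted p of their lists. The median was -0.01 for 7 dendritic cell markers (Itgax 0.57, adjusted p = 0.0917), -0.56 for the macrophage and Kupffer cell markers (Marco -0.45, adjusted p = 0.136) and 0.97 for the neutrophil markers (Cxcr2 1.12, adjusted p = 0.376). Without HCC array 2 the median of the neutrophil markers was 0.49, with 5 of 7 above 0, and without HCC array 4 it was 0.62, while array weights gave 0.40. Without HCC array 2 the median was -0.91 for the macrophage and Kupffer cell markers and -0.27 for the NK and cytotoxic cell markers, and that of the NK list was -0.05 without HCC array 5. Itgax was called higher with array weights and without HCC array 5 (adjusted p = 0.0498 and 0.0407). The 7 hepatocyte markers were high in both groups, with 12.85 as the lowest value on any array and a median difference of -0.14 (Alb -0.24, adjusted p = 0.277). All 6 biliary epithelial markers were above 0, with a median of 1.13, and the transcription factor Sox9 rose by 2.15 (SE 0.30, adjusted p = 0.0228). That call was lost without any 1 of the 4 control arrays (adjusted p = 0.0629 to 0.103).

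Facts of the whole series bear on these values in a few places. The Notch target Hes1 rose by 1.54 (adjusted p = 0.0343), with 8.08 to 9.19 in HCC against 6.67 to 7.14 in control liver, a call lost without HCC array 4 (adjusted p = 0.0556) or any 1 of the control arrays (0.0836 to 0.120). Notch1 itself, on a probe set that need not tell the transgene from the gene, differed by 0.29 (adjusted p = 0.160). Xist, which is made from the inactive X chromosome of females, was 11.14, 11.13, 4.98, 5.10 and 4.92 in HCC and 11.76, 10.68, 10.85 and 4.83 in control liver, so the groups differ in their mix. With Xist as a covariate the difference of Ubd was 2.90 (SE 0.58). Among arrays with low Xist, Ubd was 11.07, 9.75 and 9.72 in HCC and 6.64 in control liver, and among those with high Xist it was 7.34 and 9.88 in HCC and 5.89, 6.68 and 5.78 in control liver. The number of arrays limits the precision of every value given here.

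Of 22 listed genes of FAT10 conjugation and of related ubiquitin-like modifiers, 14 were measured. Their median difference was 0.05, with 9 above 0 and 5 below, and it was 0.17 after repeated quantile normalisation. The spindle checkpoint protein Mad2l1, a binding partner of FAT10 in human cells, rose, with 9.94, 8.51, 8.54, 9.30 and 8.69 in HCC against 6.99, 7.63, 7.21 and 7.06 in control liver, and no overlap. The difference of Mad2l1 was 1.77 (SE 0.30, adjusted p = 0.0392). It was the only gene called among the 142 measured genes of 8 related lists, where 0 were called lower by limma and 14 and 13 were higher and lower at an unadjusted p of 0.05. Over all genes tested, 0.858% were called higher and 0.16% lower. At that unadjusted p, 10.5% of all genes were higher and 9.85% lower (2095 and 1964 of 19938). The counts of the 142 genes, that of 1 call included, are near this background. Over 17 alternatives the difference of Mad2l1 ran from 1.54 to 1.91 and its adjusted p from 0.0189 to 0.138. The adjusted p was above the threshold in 9, among them those without HCC array 2, 3 or 4 (0.0534, 0.0671 and 0.0913). It was also above it without any 1 of the 4 control arrays (0.0897 to 0.138). Uba6, the activating enzyme of FAT10, differed by 0.38 (adjusted p = 0.181), and Ube2z, its conjugating enzyme, by -0.02 (adjusted p = 0.931). Sqstm1, the autophagy receptor that binds FAT10, differed by 0.02 (adjusted p = 0.931).

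No gene of the interferon-gamma inducible list was called, beside 0.858% of all genes called higher and 0.16% called lower. Of 34 listed, 25 were measured on a probe set of their own and 8 others only on a shared one. None of the 25 was called in either direction by limma, which is near those shares. At an unadjusted p of 0.05 there were 0 higher and 5 lower (10.5% and 9.85% of all genes). Their median difference was -0.17, with 8 above 0 and 17 below. It was -0.03, with 8 above and 10 below, when dim genes were left out, -0.11 without control array 1 and -0.10 without control array 4. Gbp7, a GTPase of cell defence, had the smallest adjusted p of the list, with 6.73, 8.30, 7.47, 6.85 and 7.61 in HCC against 8.41, 8.82, 8.84 and 8.37 in control liver. All HCC values of Gbp7 lay below all controls, and its difference was -1.22 (SE 0.30, adjusted p = 0.0868), or -1.44 (adjusted p = 0.0477) without HCC array 2 and -1.24 (adjusted p = 0.0265) with array weights. The chemokine Cxcl9, a classical target of interferon-gamma, had 6.72, 8.80, 8.29, 7.48 and 7.41 in HCC against 9.36, 9.53, 8.53 and 8.91 in control liver, a difference of -1.34 (adjusted p = 0.124). The immunity-related GTPase Iigp1 had 7.13, 11.84, 10.10, 8.99 and 11.48 in HCC against 11.62, 11.92, 11.61 and 11.85 in control liver, a difference of -1.84 (adjusted p = 0.263). Irf1, the transcription factor at the head of the response, differed by 0.28 (adjusted p = 0.247) and Cxcl10 by 0.53 (adjusted p = 0.518).

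The list's mean over these arrays was -0.62, 0.48, -0.18, -0.61 and -0.30 in HCC arrays 1 to 5 relative to the control mean, so 4 of 5 HCC arrays were below the control mean while Ubd was above it in all 5. HCC array 2 was again the highest, and 9 of 25 genes had their highest value of all arrays there. The macrophage markers of the same arrays are given above, and their part in these values was not tested.

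The 17 genes of the ligand and its signalling had a median difference of -0.03. None was called by limma, beside 0.858% of all genes called higher and 0.16% called lower. At an unadjusted p of 0.05, 2 were higher and 0 lower (10.5% and 9.85% of all genes). With dim genes left out the median was 0.26 over 9 genes. Ifng itself had 6.34, 6.23, 6.21, 6.29 and 5.96 in HCC, against 6.53, 6.39, 6.34 and 6.34 in control liver, a difference of -0.20 (adjusted p = 0.259). Its receptor chain Ifngr1 had 9.32, 9.77, 9.41, 9.47 and 8.82 in HCC, against 8.32, 9.16, 8.67 and 8.60 in control liver. Here 4 of 5 HCC arrays were above all controls, and the difference was 0.67 (SE 0.21, adjusted p = 0.135), which did not pass the test. It was called higher without HCC array 5 (0.80, adjusted p = 0.0406) and with the replicate block (0.80, adjusted p = 0.0344).

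Genes induced by TNF and NF-kappaB showed a median difference of 0.21 over 21 genes, with 16 above 0 and 5 below. None was called by limma, beside 0.858% of all genes called higher and 0.16% called lower. At an unadjusted p under 0.05, 7 were higher and 2 lower (10.5% and 9.85% of all genes). All HCC arrays were above all controls for 4 of the 21 (5.63% of all genes). With dim genes left out the median was 0.33 over 13 genes. Relative to the control mean, the list averaged 0.29, 0.50, 0.36, 0.24 and 0.008 in HCC arrays 1 to 5. The control range was -0.06 to 0.07, so HCC array 5 lay inside it. The mean was highest on HCC array 2, where 8 of 21 genes had their highest value of all arrays. The relation of this list to Ubd, and the part of immune cells in its values, were not tested. The chemokine Ccl2, which attracts monocytes, had 7.95, 7.99, 8.24, 8.35 and 7.06 in HCC, against 6.83, 6.79, 6.57 and 6.71 in control liver. Its groups did not overlap, and the difference was 1.19 (SE 0.23, adjusted p = 0.0530), just short of a call. Ccl2 was called in 4 of the 17 alternatives, among them the one without HCC array 5 (adjusted p = 0.00116). Tnfaip2 differed by 1.29 (adjusted p = 0.0778, and 0.0239 without HCC array 5), the mitochondrial dismutase Sod2 by -0.64 (adjusted p = 0.166, and 0.0270 without HCC array 5) and Tnf itself by 0.05 (adjusted p = 0.867). The median of the interferon-gamma list (-0.17) and that of the TNF list (0.21) were not tested against each other.

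The lists that surround the 9 genes in their pathway had medians near 0, with single genes away from it. MHC class I heavy chains and loading factors (13 genes) had a median of -0.09, MHC class II presentation (10 genes) 0.07, the constitutive proteasome core (19 genes) -0.07 and the proteasome regulators (23 genes) -0.08. Of 19 listed class I genes, 13 were measured on a probe set of their own. The classical heavy chains H2-K1 and H2-D1 were not among these, so their level was not assessed. None of these 65 genes was called by limma, beside 0.858% of all genes called higher and 0.16% called lower. At an unadjusted p of 0.05, 2 were higher and 6 lower (10.5% and 9.85% of all genes). Quantile normalisation of the deposited values turned the medians of the MHC class I list, the core and the regulators to 0.02, 0.02 and 0.005. Leaving out HCC array 2 turned that of the MHC class II list to -0.11, with 2 of 10 genes above 0. The class I-like molecule Cd1d1, which presents lipids, had 6.59, 8.84, 7.36, 6.68 and 8.98 in HCC, against 9.81, 9.59, 9.65 and 9.53 in control liver, with no overlap and a difference of -1.96 (SE 0.51, adjusted p = 0.0990). Cd1d1 was called lower with array weights (-1.88, adjusted p = 0.0390) and without HCC array 5 (-2.28, adjusted p = 0.0282). The groups of 2 more class I genes did not overlap. In all, 1 of the 13 was higher and 2 were lower without overlap, against 5.63% and 3.86% of all genes. H2-Q10, a class I molecule secreted by the liver, had 7.75 to 9.02 in HCC against 9.11 to 9.39 in control liver, a difference of -0.77 (adjusted p = 0.123, and 0.0478 without HCC array 5). Mr1, which presents vitamin metabolites, had 7.78 to 8.52 in HCC against 6.95 to 7.76 in control liver, a difference of 0.76 (adjusted p = 0.106). Psma4, a subunit of the outer ring of the core, differed by -0.32 (adjusted p = 0.202), Psmd12, a subunit of the regulatory cap, by -0.43 (adjusted p = 0.114, and 0.0446 without HCC array 5), and H2-Ob, a modulator of class II loading, by 0.13 (adjusted p = 0.480).

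**Figure D4:**
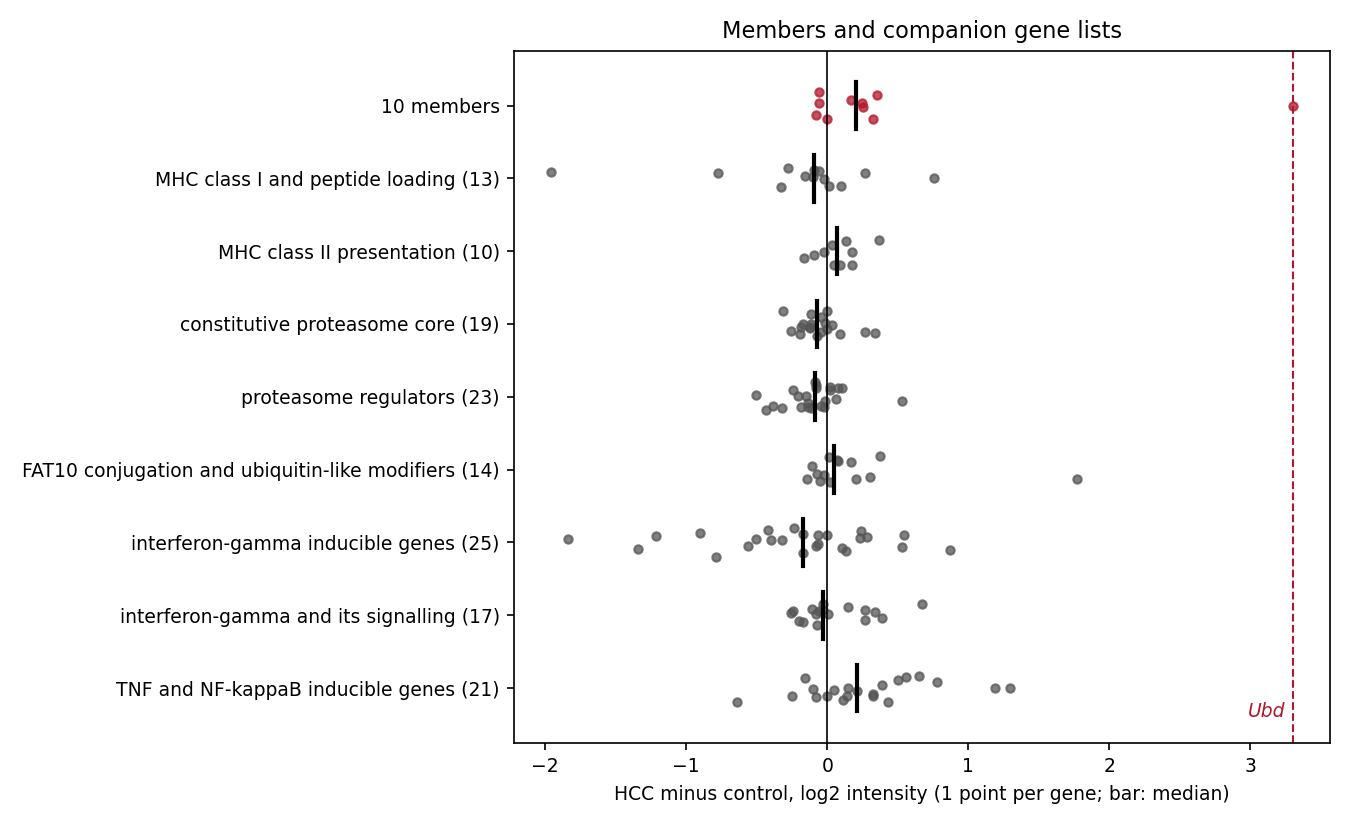
HCC minus control difference (log2) of the 10 genes (red) and of the 8 related gene lists (grey, number of genes in brackets), with 1 point per gene and a black bar at each median. The dashed line marks Ubd at 3.30, and the list points lie between -1.96 and 1.77.

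The pattern of Ubd over the 9 arrays was compared with that of every other gene by the root-mean-square difference of log2 values after subtracting each gene's control mean, as a description. The nearest was Lpl, lipoprotein lipase, at 0.68, with 9.37, 10.53, 10.92, 10.26 and 9.26 in HCC against 6.10, 7.05, 6.69 and 6.75 in control liver. Lpl shared with Ubd the high value on HCC array 3, but HCC array 5 was its lowest in HCC. The antimicrobial peptide Defb1 followed at 0.89, with 7.35, 12.09, 11.00, 10.58 and 9.46 in HCC against 7.08, 7.43, 7.79 and 7.22 in control liver. In Defb1, HCC array 1 lay within the control range, the array where Ubd too was lowest. Next were the desmosomal cadherin Dsg1c (1.03), the tetraspanin Cd63 (1.17), the noncoding RNA Meg3 (1.19) and the GABA receptor subunit Gabrp (1.26). None of them is in the lists above. The 9 other members lay at 2.39 (Psmb8) to 2.69 (Tap1) from Ubd, at ranks 1707 to 11717 of the 19937 genes compared. The values were not scaled, so this distance depends strongly on the size of the rise in HCC, by which Ubd was chosen. A gene with a small difference lies far from Ubd whatever its order over the arrays. The ranks therefore do not test if these genes move with Ubd. The genes nearest to the mean of the 9 others were Ripor2, Mtdh and Pmaip1, each at 0.065, and all 3 were highest on HCC array 2.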

How the data were processed

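Each deposited value is the linear intensity of a probe set, which the authors made with RMA per the submitters' processing notes. GenePattern and R were used by the authors, per the labels. RMA removes background, quantile normalises between arrays and summarises the probes of a set, which can compress large differences. Versions, scan dates and detection calls are not given in the sources used here, and the scale was inferred from the range of the values (3.91 to 21468, array medians 91.5 to 101).

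Intensities were transformed to log2 with no pseudocount. Of 35512 probe sets, 21789 had 1 gene symbol in the platform annotation, 1621 several and 12102 none, and 21698 of the first matched RefSeq gene names by Entrez identifier. The probe set with the highest mean was kept for 999 genes with more than 1, which left 19938 genes. No column lay outside the samples. The contrast of HCC with control liver was fitted by limma 3.58.1 in R 4.3.3 (lmFit and eBayes, two-sided, group as the only term) with Benjamini-Hochberg adjustment over all 19938 genes and a threshold of 0.05. It called 171 genes higher and 32 lower. The script was tested on simulated data. Python 3.11.15, pandas 2.3.3, numpy 2.4.6 and matplotlib 3.10.9 made tables and plots.

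Members and gene lists were chosen with earlier results of these data known. The 8 related lists held 169 genes, of which 142 were measured and 17 only on a shared probe set, and the 8 marker lists held 64, of which 59 were measured. The rest are not analysed here. Genes were named by rule: all members, up to 4 called genes per list with the largest difference or else the one with the smallest adjusted p, the 3 constitutive catalytic subunits, the 6 genes most like Ubd and the 3 most like the mean of the other 9, passing over clone-like symbols. Further examples were picked after seeing their values. Alternative settings were a filter on dim genes, repeated quantile normalisation, centring on array medians, array weights, a robust eBayes with trend, averaging a gene's probe sets, a replicate block, Xist as covariate, and dropping 1 array at a time.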

Additional observations from a re-analysis of the deposited data

Results flagged for a closer look

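In 7 of 76 sets of arrays (a named gene within HCC or within control liver), the array at 1 end stood apart by Dixon's ratio, the gap to its neighbour over the whole range. Chance alone marks about 5% of such sets.

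Tap2 stood apart on control array 4, with a ratio of 0.900 (7.83 against 7.47 for the next control array), which was the highest of its group and brings the control range up to the lower HCC values. Psmb5, the constitutive counterpart of Psmb8, stood apart on control array 1 (ratio 0.932, 11.11 against 11.38). Prf1, which encodes perforin, stood apart on control array 2 (ratio 0.910, 6.86 against 6.98), a gap of small size.

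The other 4 fell on HCC array 2. Psmb6, which the inducible Psmb9 replaces, was lowest there (ratio 0.729, 11.22 against 11.78), while Psmb9 was highest there. Ripor2 (ratio 0.760, 6.98 against 6.52), Mtdh (ratio 0.729, 10.71 against 10.23) and Pmaip1 (ratio 0.753, 7.17 against 6.60) were highest there, and these were picked for their likeness to the mean of the 9 members, which itself is highest on that array.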

How the results depend on the processing

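The difference of Ubd stayed positive in all 17 alternatives (2.90 to 3.85), and the median of the 9 other members stayed between 0.12 and 0.19. As a description, Ubd was past the threshold in 7 of 17, with its difference positive in the other 10 as well. Psme1 reached 0.34 under repeated quantile normalisation. Counts of calls moved more. Genes called higher (171) numbered 285 with the filter on dim genes, 503 with array weights and 10 to 631 with 1 array left out. Genes called lower (32) numbered 93 with the filter, 49 after repeated quantile normalisation, 246 with array weights and 0 to 556 with 1 array left out. In the related lists, where 1 was called higher, the filter gave 2, repeated quantile normalisation 0, array weights 3 and leaving out 1 array 0 to 5. Where 0 were called lower, array weights gave 2 and leaving out 1 array 0 to 6. The causes were not tested. Whether same-numbered HCC and control arrays share more than a number is not given in the sources used here. Their deviations correlated at -0.08 to 0.32, and 1 of 4 HCC arrays was nearest to its own number. So few pairs cannot settle it. With the replicate block, in which HCC array 5 has no partner, 259 genes were higher and 220 lower, and 2 of the related genes were higher. The difference of Ubd under the replicate block was 3.26. The number of arrays and signal over background limit the dim genes such as Ifng and most lymphocyte markers, and the control level of Ubd. No detection calls were used.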
